A study of Mus musculus and Rattus norvegicus with 36 samples.

Results

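Livers of Se-marginal mice, whose diet was supplemented with Se at 0.05 μg/g, were compared with livers of Se-deficient mice, a contrast that asks which transcripts a small amount of dietary Se already shifts away from their level in deficiency. The 6 arrays whose labels give mouse liver and these 2 diets were taken, 3 for each diet, out of 36 arrays in the series, and all 45037 probe sets that are not array controls were tested. The 3 liver arrays of the Se-adequate diet (0.2 μg Se/g) shared the fit and served to place each value. The series also holds mouse kidney arrays and rat liver arrays at other Se levels. All mice were males from a wild-type colony of predominantly C57 black background, weaned from Se-adequate dams, and all ate the same torula-yeast basal diet, low in Se and fortified with vitamin E and methionine. The Se-marginal mice had 0.05 μg Se/g added to it as selenite, the Se-deficient mice had no Se added, and both diets were fed for 35 days. Each array carries RNA from the perfused liver of a single mouse.

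Selenium acts through selenoproteins, which carry it as selenocysteine, an amino acid inserted at a UGA codon that would otherwise end translation. When Se is short, the transcripts of some selenoproteins, such as Gpx1, are degraded while others are spared, so that liver selenoprotein mRNA is a long-used readout of Se status in rodents. A further set of genes, driven by the transcription factor Nrf2 (Nfe2l2), encodes enzymes that reduce, conjugate and export reactive compounds, and Nrf2 is known to be released from its inhibitor Keap1 when the redox state of the cell is disturbed.

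The values are log2 expression values, and all differences below are log2(0.05 μg Se/g) minus log2(Se-deficient), so that a positive value means a higher level in Se-marginal liver. A probe set was called when its adjusted p in limma, corrected over all probe sets by the Benjamini-Hochberg method, was below 0.05. Array medians ran from 6.17 to 6.28, and arrays of the same diet correlated with r of 0.993 to 0.996 across probe sets. The liver label held. Alb, the plasma albumin, read 14.76, 14.83 and 14.90 in Se-marginal liver and 14.84 on each Se-deficient array, while Umod, a kidney tubule product, read 3.64 to 3.85 in Se-marginal and 3.76 to 3.94 in Se-deficient liver. Of the 9 kidney tubule markers measured, however, 7 had a higher mean in Se-marginal liver, with 0 called in limma. Their summed level ran from 9.49 to 9.63 in Se-marginal and from 9.23 to 9.47 in Se-deficient liver, without overlap. The array control for 18S ribosomal RNA (3′ probe set) stood at 10.55, 9.01 and 9.16 on the Se-marginal arrays and at 11.69, 9.72 and 9.38 on the Se-deficient arrays, so replicate 1 was the highest on each diet. The median difference was 0.03 over all probe sets, but it was −0.08 among the brightest 20% by mean level, against 0.03 to 0.06 among the rest taken in bands of the same size. With quantile normalization the brightest 20% had a median of 0.00.

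Between the 2 diets 17 probe sets were called, 0.0377% of those tested. Of these, 7 were higher in Se-marginal liver (0.0155%) and 10 were lower (0.0222%). With any 1 of the 6 arrays of these diets left out the total was 8 to 10, with 5 to 6 higher and 3 to 5 lower. All 7 that were higher measure selenoproteins, namely Selenow, Gpx1, Selenoh, Selenok and Txnrd2. The 8 genes identified among the 10 that were lower are Cbr3, Gsta2, Abcc4, Gsta4, Nqo1, Cbr1, Mgst3 and Acaa1a, and the other 2 probe sets match several genes each and are not named. Without adjustment 3946 probe sets (8.76%) had a limma p below 0.05. In the plot of p against the difference, 24 probe sets (0.0533%) lay beyond 2-fold, 9 higher (0.02%) and 15 lower (0.0333%). The count of 24 rose to 47 without Se-marginal replicate 2 and to 53 without Se-deficient replicate 2. Without any other single array of these diets it was 21 to 29.

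**Figure D1:**
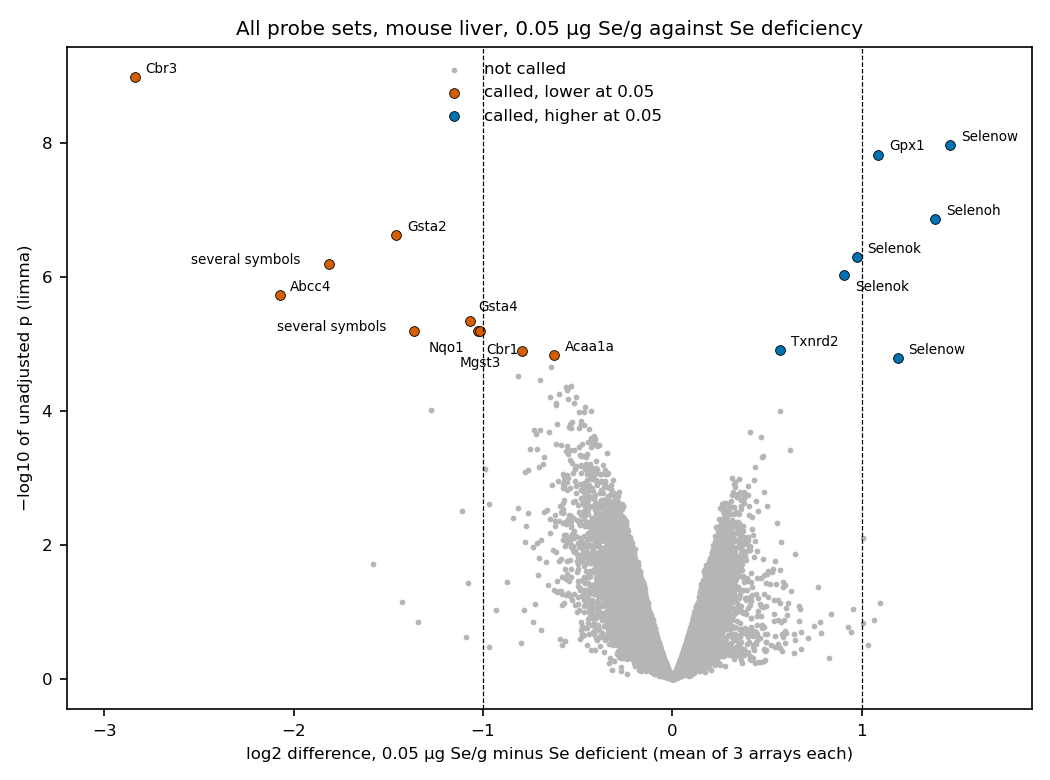
All 45037 probe sets, with the log2 difference between Se-marginal and Se-deficient mouse liver on the x axis and −log10 of the unadjusted limma p on the y axis. Dashed lines mark 2-fold. The 7 blue points are selenoprotein probe sets, the 10 orange points are called lower at 0.05 μg Se/g, and Cbr3 has the largest difference of all called probe sets at −2.84.

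Selenoprotein transcripts carried every call in the upward direction. Selenow, a small thioredoxin-like selenoprotein, read 11.36, 11.05 and 11.05 in Se-marginal liver, against 9.66, 9.69 and 9.70 in Se-deficient liver (probe set 1460561_x_at). The diets were far apart, and the Se-marginal level was 2.77-fold higher, a difference of 1.47 (SE 0.09, limma adjusted p = 2.2e-04). This probe set has probes that may also bind other transcripts, but its partner 1416521_at gave 9.41, 8.79 and 8.72 at 0.05 μg Se/g against 7.87, 7.77 and 7.70 in deficiency, a difference of 1.19 (adjusted p = 0.0422). That partner was called in only 1 of the 6 fits that left out an array of either diet, the fit without Se-marginal replicate 1, its highest array, and its adjusted p ran from 0.0296 to 0.212. Gpx1, the cytosolic glutathione peroxidase, was even among the Se-marginal mice, with 14.08, 14.07 and 14.06, against 12.87, 13.07 and 12.99 in the Se-deficient mice. It stood 2.13-fold higher (difference 1.09, SE 0.07, adjusted p = 2.2e-04), near the upper end of the scale of these arrays.

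Selenoh, a nuclear selenoprotein with a DNA-binding motif, read 8.56, 8.25 and 8.53 at 0.05 μg Se/g and 7.06, 7.02 and 7.09 in deficiency, 2.62-fold higher (difference 1.39, SE 0.11, adjusted p = 0.0015). Selenok, a membrane protein of the endoplasmic reticulum, was called by both of its probe sets. Its brighter probe set read 11.16, 10.96 and 10.96 at 0.05 μg Se/g against 9.97, 10.24 and 10.15 in deficiency (difference 0.91, adjusted p = 0.0051), and the other, 1447909_s_at, differed by 0.98 (adjusted p = 0.0038). For Txnrd2, the mitochondrial thioredoxin reductase, the probe sets differed among themselves. Probe set 1451936_a_at read 7.51, 7.65 and 7.48 at 0.05 μg Se/g against 7.04, 6.91 and 6.98 in deficiency and was called (difference 0.57, adjusted p = 0.0376), although in none of the fits without an array of either diet (adjusted p from 0.109 to 0.2). The brightest Txnrd2 probe set differed by the same 0.57 without being called (adjusted p = 0.127), and the remaining pair differed by 0.12 and −0.16.

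**Figure D2:**
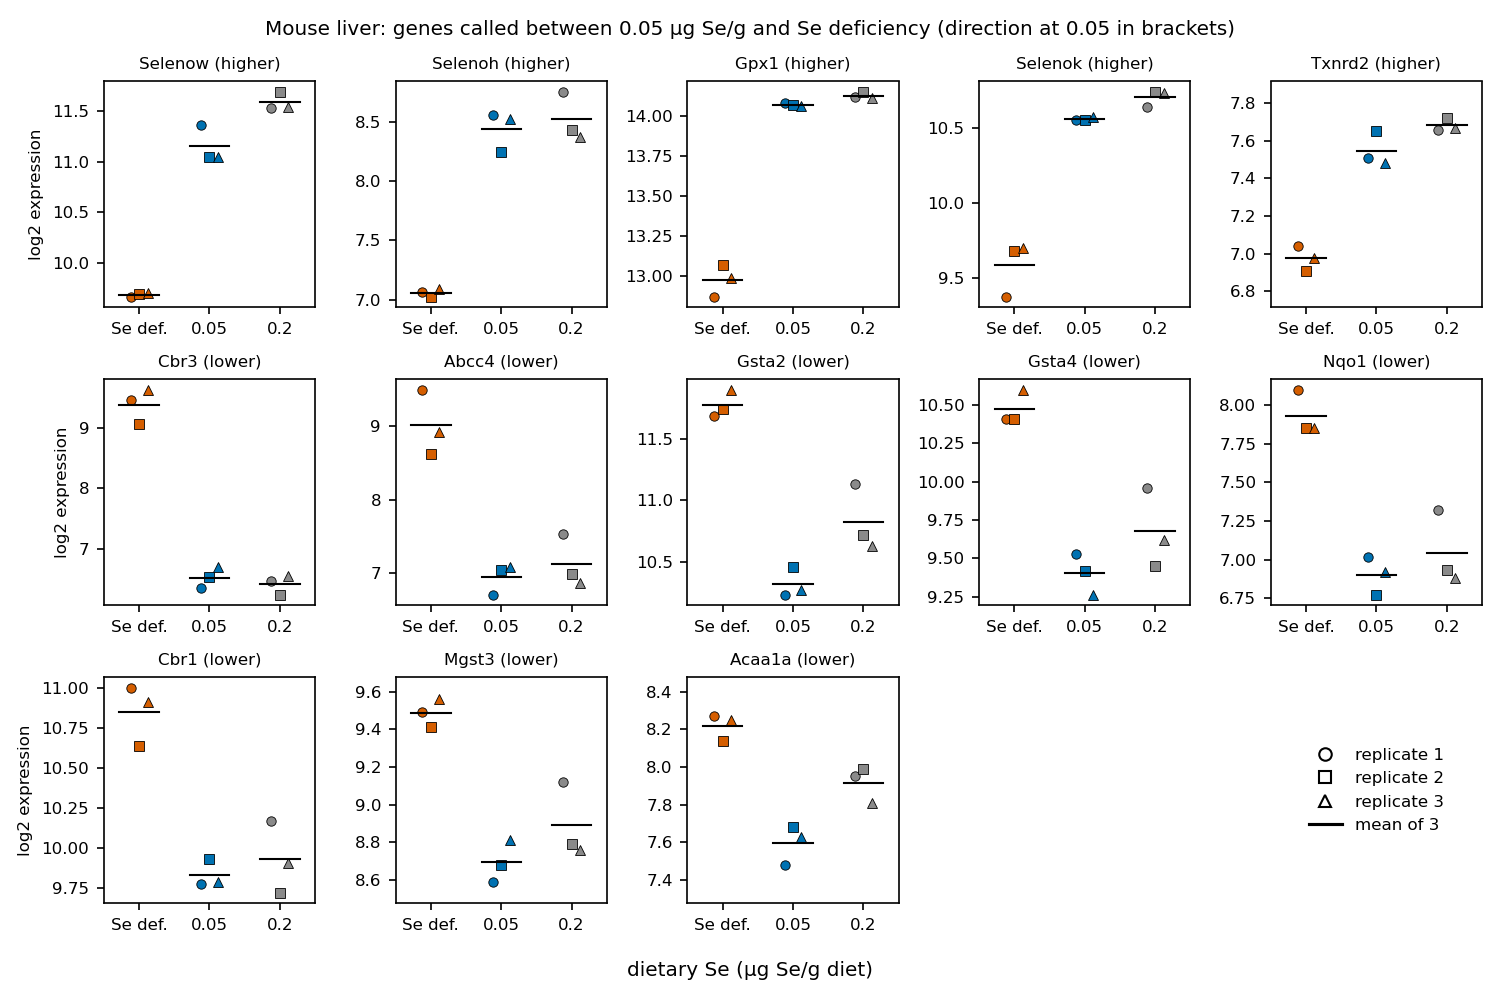
Log2 expression of the 13 named genes with a called probe set on the 9 mouse liver arrays, by dietary Se from low to high. Points are single arrays, bars are means of 3, and each gene is shown by its probe set with the smallest adjusted p. In each panel the Se-marginal points lie clear of the Se-deficient ones, and among the selenoproteins the gap to the Se-adequate mean is widest for Selenow, at −0.43.

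Other selenoproteins were not called. Of 24 listed, 23 were measured, and with each gene given by its brightest probe set 4 were called higher and 0 lower (0.0605% of all genes taken this way were called in either direction). Of the 23, 20 had a higher mean at 0.05 μg Se/g and 9 had all 3 Se-marginal arrays above all 3 Se-deficient arrays. Among all 18193 genes measured this way 6.15% were separated upwards. The list's median difference was 0.15, against 0.02 over all genes. Txnrd1, the cytosolic thioredoxin reductase and also an Nrf2 target, read 10.16, 9.95 and 9.98 at 0.05 μg Se/g against 9.68, 9.49 and 9.49 in deficiency, so its arrays did not overlap (difference 0.47, adjusted p = 0.26). After quantile normalization this brightest Txnrd1 probe set was called (difference 0.59, adjusted p = 0.0093). The dimmer ones differed by less, 1424486_a_at by 0.19 without overlap and 1424487_x_at by 0.11 with overlapping arrays. Selenom differed by 0.26 and Dio1, the deiodinase that activates thyroid hormone, by 0.26 (adjusted p = 0.467 and 0.598). Selenop, the plasma Se carrier made in liver, was abundant, at 14.25, 14.31 and 14.29 at 0.05 μg Se/g against 14.24, 14.18 and 14.11 in deficiency (difference 0.11, 95% interval −0.04 to 0.26).

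At the other end stood Gpx4, the phospholipid hydroperoxide glutathione peroxidase, with 12.53, 12.75 and 12.72 in Se-marginal liver and 12.74, 12.91 and 12.92 in Se-deficient liver. The difference was −0.20 and its interval, −0.38 to −0.01, did not reach a positive value, although the adjusted p was 0.565. The dimmer Gpx4 probe set 1451695_a_at differed by −0.28 (−0.47 to −0.10, adjusted p = 0.479), with no overlap between the diets. Gpx4 belongs to the brightest 20% of probe sets, whose median difference was −0.08. Sephs2, the selenophosphate synthetase that is itself a selenoprotein, differed by −0.10 (−0.25 to 0.05), and Selenos and Selenoi differed by 0.01 and 0.00. The machinery that makes and inserts selenocysteine had 0 of 14 measured members called in limma, with 3 below an unadjusted p of 0.05 (median −0.09). Its members with the smallest p, Celf1 and Secisbp2l, differed by −0.26 and −0.39 without passing the test. Of the 14 members, 10 belong to the brightest 20% of probe sets, and after quantile normalization the list's median was −0.05. Se transport and recycling had 0 of 10 called and 1 below an unadjusted p of 0.05. Of all probe sets 8.76% were below that p.

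**Figure D3:**
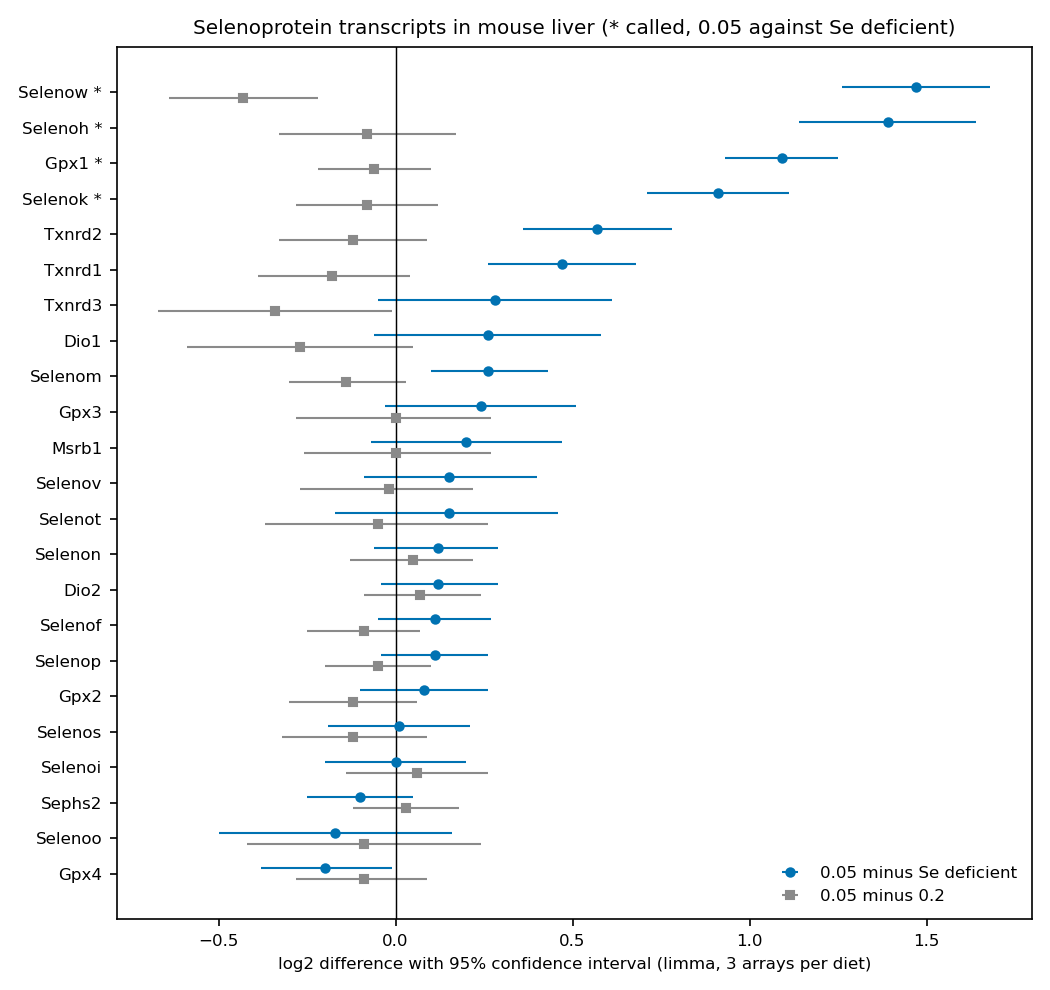
Log2 differences of the 23 measured selenoprotein transcripts, each by its brightest probe set, for 0.05 μg Se/g minus Se-deficient (blue circles) and 0.05 minus 0.2 μg Se/g (grey squares), with 95% confidence intervals from limma on the x axis. Selenow, Selenoh, Gpx1 and Selenok stand apart at 0.91 to 1.47, and Selenow is also the furthest below its Se-adequate level at −0.43.

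The downward calls were led by Cbr3, a carbonyl reductase that reduces quinones and other carbonyls with NADPH. It read 6.36, 6.54 and 6.71 in Se-marginal liver and 9.45, 9.06 and 9.62 in Se-deficient liver. No other called probe set was separated as widely, with a 7.16-fold lower level at 0.05 μg Se/g (difference −2.84, SE 0.15, adjusted p = 4.6e-05), and the call held in all 6 fits that left out an array of either diet (adjusted p from 3.3e-05 to 0.0014). Cbr1, its close relative and neighbour on chromosome 16, with 72869 bases and 1 other annotated gene between them, read 9.78, 9.93 and 9.79 at 0.05 μg Se/g against 11.00, 10.64 and 10.91 in deficiency (difference −1.02, SE 0.12, adjusted p = 0.0221). Cbr1 passed in only 1 of the 6 fits that left out an array of either diet, that without Se-deficient replicate 2, its lowest Se-deficient array (adjusted p from 0.0244 to 0.173). Of the 17 carbonyl and aldo-keto reductases measured these 2 were called, and 13 had lower means (11 after quantile normalization).

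Abcc4, the multidrug resistance protein that exports conjugates across the hepatocyte's sinusoidal membrane, read 6.70, 7.04 and 7.09 at 0.05 μg Se/g and 9.50, 8.63 and 8.93 in deficiency. It was 4.21-fold lower (difference −2.07, SE 0.22, adjusted p = 0.0093), with the widest spread of any called gene among the Se-deficient mice. Its call was lost in each fit without a Se-marginal array and in that without Se-deficient replicate 3, with adjusted p from 0.0111 to 0.0785 and differences from −2.27 to −1.84. Other Abc efflux transporters were not called. Abcc3 read 10.83, 10.74 and 10.64 at 0.05 μg Se/g against 11.37, 10.97 and 11.27 in deficiency, and Abcc2 differed by −0.39 with overlapping arrays.

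Glutathione transferases, which conjugate electrophiles to glutathione, gave 3 calls among 21 measured, all lower. Gsta2 read 10.23, 10.46 and 10.27 in Se-marginal liver against 11.69, 11.74 and 11.90 in Se-deficient liver, 2.75-fold lower (difference −1.46, SE 0.13, adjusted p = 0.0021), and its call held in those 6 fits as well. Gsta4, whose enzyme acts on the lipid peroxidation product 4-hydroxynonenal, read 9.53, 9.42 and 9.26 at 0.05 μg Se/g against 10.41, 10.41 and 10.60 in deficiency (difference −1.07, adjusted p = 0.0205). Mgst3, a membrane-bound family member, read 8.59, 8.68 and 8.81 at 0.05 μg Se/g against 9.49, 9.41 and 9.56 in deficiency (difference −0.80, adjusted p = 0.0376), but its dimmer probe set 1450563_at differed by 0.08 with overlapping arrays. Both Gsta4 and Mgst3 lost their calls in all 6 fits that left out an array of either diet, with adjusted p from 0.073 to 0.12 and from 0.102 to 0.228. Across the family 19 means were lower (18 after quantile normalization, which also lost the call of Mgst3) and 12 members had all 3 Se-marginal arrays below all Se-deficient ones, as 5.64% of all genes did. Of the 21 members, 19 belong to the brightest 20% of probe sets, whose median difference was −0.08. Gstm4 came nearest to a further call (difference −0.70, adjusted p = 0.0763).

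Nqo1, a quinone reductase often used as an indicator of Nrf2 activity, read 7.02, 6.77 and 6.92 at 0.05 μg Se/g and 8.10, 7.85 and 7.85 in deficiency, 2.04-fold lower (difference −1.03, SE 0.13, adjusted p = 0.0221). The call was lost in all 6 fits that left out an array of either diet, where adjusted p ran from 0.0847 to 0.167. Acaa1a, a peroxisomal thiolase of fatty acid oxidation, was called by probe set 1456011_x_at with 7.48, 7.68 and 7.63 at 0.05 μg Se/g against 8.27, 8.14 and 8.25 in deficiency (difference −0.63, adjusted p = 0.0407), again in none of those 6 fits (adjusted p from 0.12 to 0.212). Its brighter probe set, 1456737_x_at, differed by only −0.11 with overlapping arrays, and both have probes that may bind other transcripts, so the level of Acaa1a itself is uncertain.

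On a list of Nrf2 targets, 31 of 37 were measured, and Cbr3, Gsta2, Abcc4, Gsta4, Nqo1 and Cbr1 were the 6 called, all lower in Se-marginal liver. The list was chosen with earlier results of these data known. The study had already listed all 6 as raised in Se-deficient mouse liver, some of them only nearly significantly. It did not mark Gsta2 as an Nrf2 target. The counts for this list are therefore a description. In all 28 of the 31 means were lower, 20 members had no overlap downwards (against the same 5.64% of all genes), and the median difference was −0.33, or −0.28 after quantile normalization. The list kept 2 to 4 of these calls when an array of either diet was left out, with 2 in each fit without a Se-marginal array and in that without Se-deficient replicate 3. Of the 31 members 25 belong to the brightest 20% of probe sets, where the median of all probe sets was −0.08. The proteasome and respiratory chain genes measured all lie there, and 9 of 31 and 7 of 35 of them had no overlap downwards. Members that were not called included Ugdh, which supplies UDP-glucuronic acid (−0.54, adjusted p = 0.0869), Ephx1 (−0.43), Srxn1 (−0.39) and Aox1 (−0.57). Other members had differences near 0, such as Mgst1 at −0.06, Akr1b8 at −0.02 and Hmox1, the inducible heme oxygenase, at 0.10 with overlapping arrays. Gclc, the catalytic subunit of the enzyme that starts glutathione synthesis, read 13.07, 12.92 and 12.94 at 0.05 μg Se/g against 13.31, 13.29 and 13.32 in deficiency (difference −0.33, adjusted p = 0.491).

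The promoters of the called genes were searched because several of them are known Nrf2 targets, and Nrf2 binds the antioxidant response element, whose core is TGACNNNGC. That core and the related TGAGNNNGC were looked for on both strands in the 250 bases before each RefSeq transcription start (GRCm38.p6), and no stretch read on a single strand can match both. At least 1 of them occurred in 23% of all 32851 windows, TGACNNNGC in 10.2% and TGAGNNNGC in 14.4%. A window was held for 12 of the 13 called genes, and Abcc4, Acaa1a and Selenok had a match, in 4 of 13 windows. Whether that differs from the 23% of all windows was not tested. Cbr3, Cbr1, Gsta2, Nqo1 and Mgst3 had none in these bases, nor did Selenow, Gpx1, Selenoh and Txnrd2. Bases further upstream were not searched. The window of Cbr3, the gene with the largest difference, and of the 3 genes with a match are shown 5′ to 3′ on the strand of the gene, with matches in capitals. They lie at chr16:93682969-93683218 (plus strand), chr14:118706220-118706469 (minus strand), the outermost of its 2 starts, chr9:119341044-119341293 (plus strand) and chr14:29968130-29968379 (plus strand). Abcc4 reads GCGGGGTCA and GCGCTCTCA, the reverse complements of the 2 patterns. The window of its other start, not shown, has TGACTCTGC on the strand of the gene, 23 to 15 bases before that start.
Cbr3: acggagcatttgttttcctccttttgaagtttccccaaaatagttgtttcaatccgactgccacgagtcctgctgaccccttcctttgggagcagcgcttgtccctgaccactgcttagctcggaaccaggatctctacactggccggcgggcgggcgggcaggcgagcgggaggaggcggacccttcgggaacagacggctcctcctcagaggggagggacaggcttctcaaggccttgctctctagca
Abcc4: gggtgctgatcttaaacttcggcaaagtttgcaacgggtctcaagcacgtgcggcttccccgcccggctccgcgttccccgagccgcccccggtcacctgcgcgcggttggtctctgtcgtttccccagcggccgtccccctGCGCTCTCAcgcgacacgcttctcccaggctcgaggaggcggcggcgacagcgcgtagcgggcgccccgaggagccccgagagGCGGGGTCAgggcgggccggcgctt
Acaa1a: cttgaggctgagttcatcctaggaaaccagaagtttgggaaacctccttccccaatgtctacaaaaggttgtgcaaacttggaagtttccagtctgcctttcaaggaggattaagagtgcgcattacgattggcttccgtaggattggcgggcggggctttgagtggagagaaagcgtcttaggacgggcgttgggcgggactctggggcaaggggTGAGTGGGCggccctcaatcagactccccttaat
Selenok: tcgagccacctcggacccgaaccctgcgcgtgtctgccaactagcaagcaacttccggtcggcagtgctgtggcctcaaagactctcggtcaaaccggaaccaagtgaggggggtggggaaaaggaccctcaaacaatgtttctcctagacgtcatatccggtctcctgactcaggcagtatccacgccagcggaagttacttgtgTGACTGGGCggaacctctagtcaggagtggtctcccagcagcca

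A few genes missed the threshold narrowly or were separated widely with an uneven spread. Hspb1, a small heat shock protein, read 8.35, 8.66 and 8.56 in Se-marginal liver and 9.40, 9.49 and 9.13 in Se-deficient liver (difference −0.81, adjusted p = 0.0702). Of the 17 heat shock genes measured 0 were called in limma and 3 had an unadjusted p below 0.05, as 8.76% of all probe sets did. Lgals1, a galectin, read 8.60, 9.87 and 9.59 at 0.05 μg Se/g against 10.15, 10.77 and 10.48 in deficiency (difference −1.11, adjusted p = 0.447), and the lysosomal nuclease Dnase2a differed by −0.99 (adjusted p = 0.309), both with their lowest value in Se-marginal replicate 1. Among genes that were higher, Cyp2c55, a cytochrome P450, read 11.22, 11.13 and 11.14 at 0.05 μg Se/g against 10.32, 10.52 and 10.77 in deficiency (difference 0.62, adjusted p = 0.236). It passed in a fit of the 18 mouse arrays of both tissues, as did Ugdh and Gstm4, which were lower. Of 27 drug-metabolizing P450 genes measured 0 were called in the liver fit, with 14 higher and 13 lower means. An unadjusted p below 0.05 was found for 3 of them, against the same 8.76% of all probe sets. UDP-glucuronosyltransferases and their partner Ugdh had 0 of 12 called and 7 below an unadjusted p of 0.05 (8.76% of all probe sets), and every mean was lower (11 after quantile normalization). Gsta3, a class alpha transferase related to Gsta2, read 12.85, 13.08 and 13.06 at 0.05 μg Se/g against 13.23, 13.31 and 13.31 in deficiency (difference −0.29, adjusted p = 0.479).

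**Figure D4:**
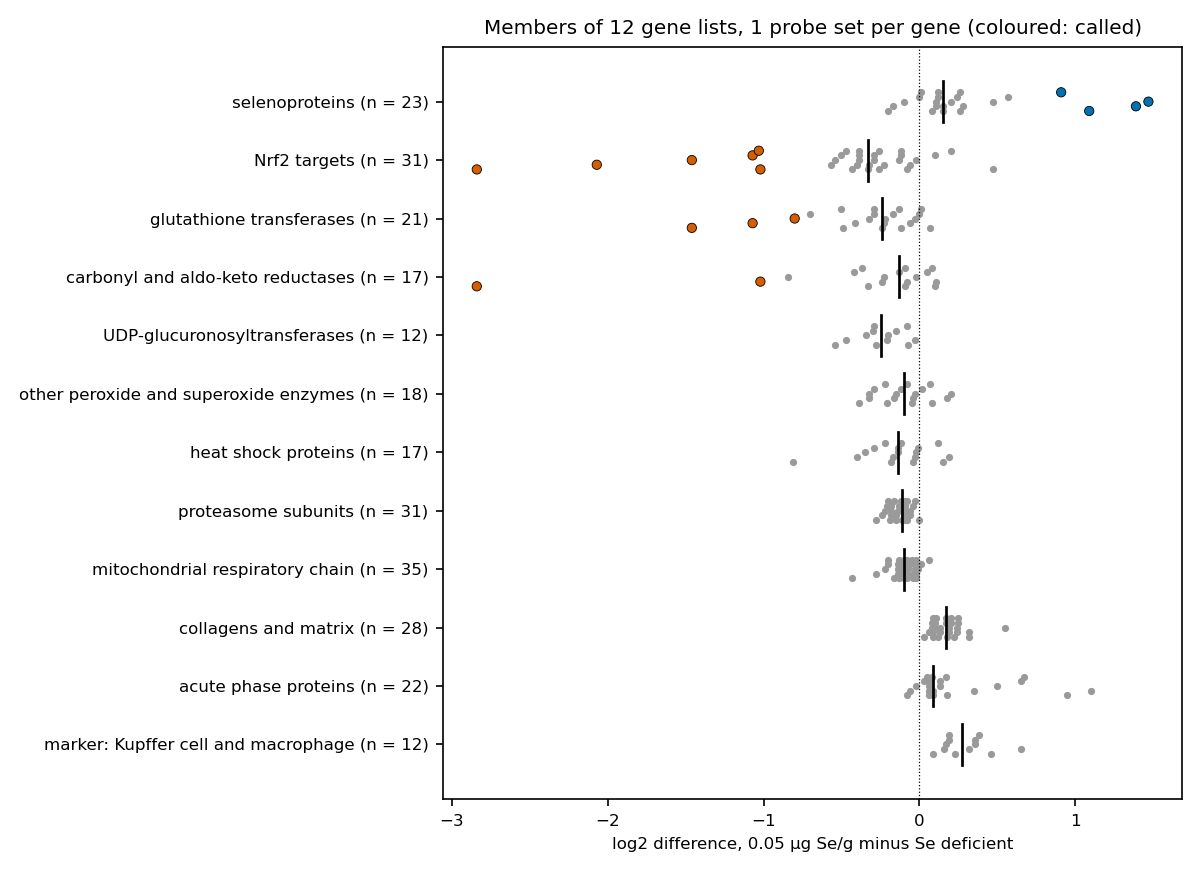
Log2 differences between Se-marginal and Se-deficient mouse liver on the x axis for the members of 12 gene lists, 1 probe set per gene, with a black bar at the median. Blue and orange points are called higher and lower at 0.05 μg Se/g. Calls fall in the selenoprotein, Nrf2 target, glutathione transferase and reductase lists, while the proteasome and respiratory chain lists lie close to 0.

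Lists of metabolism and housekeeping showed small differences without calls in limma. Cholesterol synthesis (20 genes measured), fatty acid synthesis (19) and glucose output and glycolysis (18) had 0 members even below an unadjusted p of 0.05, and fatty acid oxidation had 4 of 22. The share of all probe sets below that p, for these lists and those that follow, was 8.76%. Proteasome subunits had lower means for 30 of 31 genes and respiratory chain subunits for 33 of 35, with medians of −0.11 and −0.10, but after quantile normalization only 18 and 21 means were lower and the medians were −0.02 and −0.03. Below an unadjusted p of 0.05 there were 7 and 3. All members of these 2 lists lie in the brightest 20%. Collagens and matrix genes had higher means for all 28 measured under both scalings (median 0.17), with 0 called and 6 below an unadjusted p of 0.05. Col6a1, the most separated of them, read 6.40, 6.52 and 6.36 at 0.05 μg Se/g against 6.03, 6.14 and 6.14 in deficiency (difference 0.32, adjusted p = 0.354). These are levels in whole liver, so fewer cells of a type and less RNA per cell cannot be told apart.

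Immune and acute phase transcripts varied among mice of the same diet. Of 22 acute phase genes measured, 19 had higher means in Se-marginal liver (20 after quantile normalization). In limma 0 of them were called and 1 was below an unadjusted p of 0.05, against 8.76% of all probe sets. Lcn2, an iron-trapping protein of the acute phase, read 10.43, 7.92 and 10.51 in Se-marginal liver and 8.39, 9.0 and 8.18 in Se-deficient liver. Se-marginal replicates 1 and 3 were high and replicate 2 was the lowest of the 6. The difference of 1.10 was not called (adjusted p = 0.583), and only the fit without Se-marginal replicate 2 called it. Saa2, a serum amyloid, showed the same 2 high mice, at 11.70, 9.99 and 12.35 at 0.05 μg Se/g against 9.84, 11.18 and 10.15 in deficiency. Clec7a, the macrophage receptor dectin-1, was high in Se-marginal replicate 3 alone (7.80, 7.65 and 9.28 at 0.05 μg Se/g against 7.28, 7.60 and 7.55 in deficiency).

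All 12 Kupffer cell and macrophage markers measured had higher means in Se-marginal liver (median 0.27), but 0 were called in limma, 0 had an unadjusted p below 0.05, and in each the diets overlapped. Their summed level ran from 13.17 to 14.32 at 0.05 μg Se/g and from 12.72 to 14.13 in deficiency, and Marco read 7.39, 6.92 and 9.60 at 0.05 μg Se/g against 6.44, 9.13 and 6.41 in deficiency, with 1 high mouse on each diet. For 8 neutrophil markers the summed level ran from 10.03 to 10.54 in Se-marginal liver and from 9.57 to 10.01 in Se-deficient liver, with S100a8 at 8.01, 7.30 and 8.64 at 0.05 μg Se/g against 6.52, 7.45 and 6.97 in deficiency (difference 1.01, adjusted p = 0.509). All 8 neutrophil marker means were higher in Se-marginal liver (7 after quantile normalization), with 0 called in limma and 3 below an unadjusted p of 0.05. For T, B and NK cell markers 10 of 11 means were higher under both scalings, with 0 called and 3 below that p. The share of all probe sets below it was 8.76%. The hepatocyte markers summed to 17.37 to 17.46 in Se-marginal and 17.38 to 17.44 in Se-deficient liver. The part of these levels, or of the 18S control, in the called differences was not tested.

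**Figure D5:**
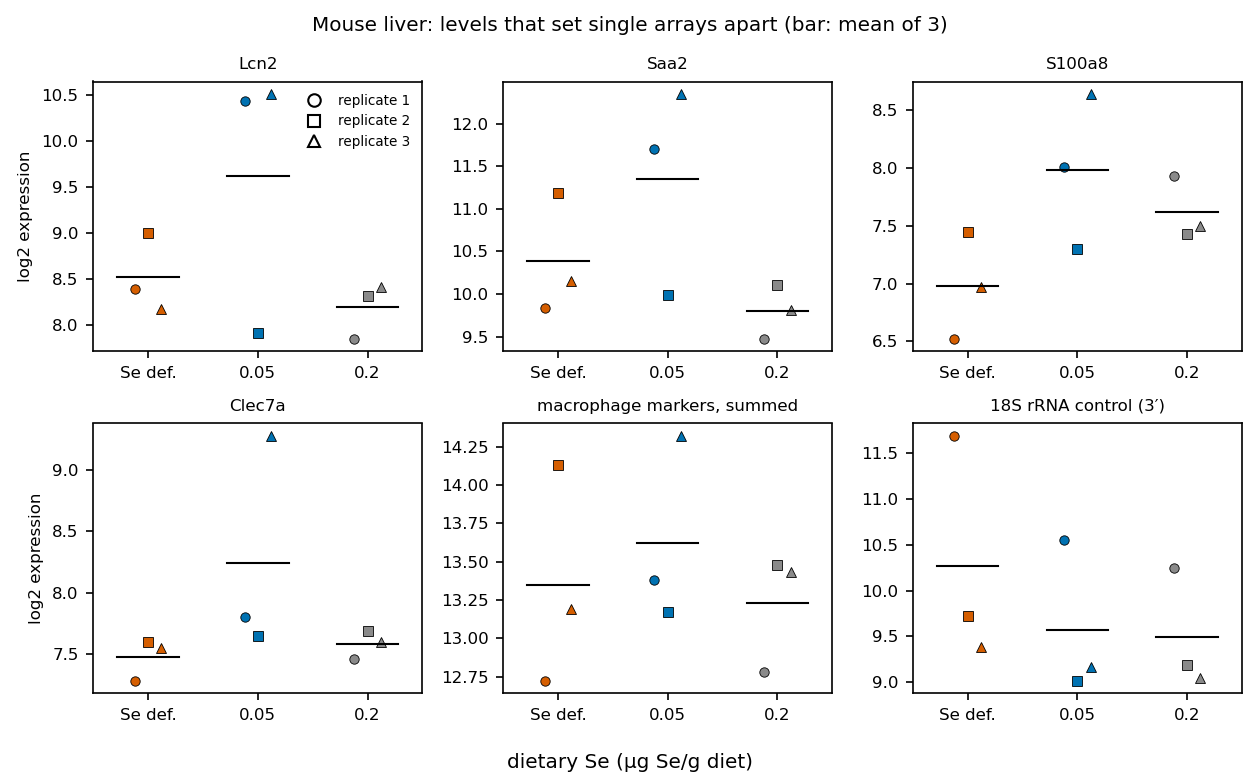
Log2 levels of 4 immune or acute phase transcripts, of the summed macrophage markers and of the 18S ribosomal RNA control on the 9 mouse liver arrays, by dietary Se from low to high, with symbols for the replicate number and bars for means of 3. Lcn2 and Saa2 are high in Se-marginal replicates 1 and 3, Clec7a in replicate 3, and the 18S control in replicate 1 of each diet.

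Set against the Se-adequate diet, Se-marginal liver had 0 probe sets called in limma (0%), with 878 (1.95%) below an unadjusted p of 0.05. Se-deficient liver against the same arrays had 10 called (0.0222%), and 9 of them were also among the 17 called between the Se-marginal and Se-deficient diets. The tenth was Hspb1 (adjusted p = 0.0398). These contrasts share arrays, and the 17 probe sets were chosen through the Se-marginal arrays, so the positions that follow are a description.

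All 7 selenoprotein probe sets had a Se-marginal mean short of the Se-adequate mean, having covered 77.1% to 94.9% of the distance from the Se-deficient mean. Gpx1 was at 94.9% (0.05 minus 0.2 μg Se/g −0.06, 95% interval −0.22 to 0.10), Selenoh at 94.6% (−0.08, −0.33 to 0.17) and Selenok at 92.2% (−0.08, −0.28 to 0.12). All 3 Se-marginal Gpx1 arrays nevertheless lay below the Se-adequate ones, at 14.12, 14.15 and 14.11. For Selenow (1460561_x_at) the arrays read 11.36, 11.05 and 11.05 in Se-marginal liver, all below the 11.53, 11.69 and 11.54 of Se-adequate liver. At 77.3% of the distance its mean was lower by 0.43, with an interval of −0.64 to −0.22 that did not include 0. The interval is not adjusted over probe sets, and the difference was not called (limma adjusted p = 0.9999). Txnrd1, not called, was at 72.9% by its brightest probe set (−0.18, −0.39 to 0.04), at 48.4% by 1424486_a_at and at 63.3% by 1424487_x_at.

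Among the 10 probe sets called lower, only Cbr3 stopped short of the Se-adequate mean, at 96.5% of the distance (0.10, −0.22 to 0.42). The means of the other 9 lay below it. Gsta2 was lower in Se-marginal liver than in Se-adequate liver, where it read 11.13, 10.72 and 10.63, by 0.51 with an interval of −0.79 to −0.23 and no overlap between the arrays. The called Acaa1a probe set showed the same order (−0.32, −0.50 to −0.13). Neither difference from Se-adequate liver was called (limma adjusted p = 0.9999 for both), and the intervals are not adjusted over probe sets. For Abcc4, Gsta4, Nqo1, Cbr1 and Mgst3 the intervals included 0, from Cbr1 at −0.10 (−0.37 to 0.18) to Gsta4 at −0.27 (−0.55 to 0.01). Se-adequate replicate 1 was the highest array of its diet for each of these 5 genes.

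The kidneys of mice on the same 2 diets gave 5 called probe sets (0.0111%, with 817, or 1.81%, below an unadjusted p of 0.05), in Selenoh, Gpx1, Abcc4, Gsta3 and Selenow. The Selenow call came from 1460561_x_at (difference 1.14 in kidney), while its partner 1416521_at differed by 0.31 in kidney and was not called. Gpx1 differed by 1.09 in liver and 1.10 in kidney, and Abcc4 by −2.07 in liver and −1.22 in kidney (adjusted p = 0.0143 in kidney for both). The other genes with a call in liver had none in kidney. Besides Cbr3, their kidney differences were −0.55 for Gsta2, −0.10 for Gsta4, −0.77 for Nqo1, −0.12 for Cbr1 and 0.09 for Mgst3. They were −0.07 for Acaa1a (1456011_x_at), 0.25 for Selenok (brighter probe set) and 0.23 for Txnrd2 (1451936_a_at). The test of the difference between the tissues called 1 probe set (0.00222%, with 4.17% below an unadjusted p of 0.05), Cbr3. It averaged 6.04 ± 0.20 in Se-marginal kidney and 6.62 ± 0.28 in Se-deficient kidney (SD, n = 3 each), a difference of −0.58 that was not called, and the liver difference minus the kidney difference was −2.26 (SE 0.22, limma adjusted p = 2.8e-04).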

How the data were processed

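RNA from mouse liver was hybridized to 1 array per mouse. The authors deposited log2 expression values, 1 for each probe set and array, and GCRMA is the tool in the submitters' processing notes (version not given), while the methods name RMA in the affy package, run for each tissue on its own. They were used as deposited, with no filter, and 64 array controls were left out. Fits were made in limma 3.58.1 under R 4.3.3 (lmFit with 1 coefficient per diet on 9 liver arrays, eBayes with its defaults), and figures in Python 3.11.15 with matplotlib 3.10.9. Adjusted p values come from limma with the Benjamini-Hochberg method over 45037 probe sets. With 3 arrays against 3 the smallest exact two-sided p is 0.1, and the number of arrays limits the precision.

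Named genes are the called probe sets with 1 symbol, all selenoproteins, genes the study names, the 10 largest non-overlapping rises and falls, and 2 to 4 members with the smallest p of each list described. The other genes named, such as Hmox1, Akr1b8, Mgst1 and Eif2a, were chosen after their values were seen. Members and lists (41) were chosen with earlier results of these data known. The brightest probe set over the 9 arrays stands for a gene. Of the probe sets 34945 have 1 symbol, 932 have several and 9160 have none. The tissue comparison used 18 mouse arrays, and 0 per-sample columns were left unused. The fits were tested on simulated data. Alternatives were other fits, weights, filters, quantile normalization, a replicate block and leaving out arrays.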

Additional observations from a re-analysis of the deposited data

Results flagged for a closer look

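The response of Cbr3 to 0.05 μg Se/g differed between the tissues, and it was the only probe set for which limma called that difference. The liver difference minus the kidney difference was −2.26 on the log2 scale (SE 0.22, adjusted p = 2.8e-04), and the adjusted p was 1.7e-04 when liver and kidney arrays sharing diet and replicate number were taken as a block. The difference between Se-marginal and Se-deficient mice was −2.84 in liver and −0.58 in kidney. Some other genes called in liver also differed less in kidney, without a call between the tissues. Gsta4 differed by −1.07 in liver and −0.10 in kidney, and Cbr1 by −1.02 and −0.12, while Gpx1 differed by 1.09 and 1.10.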

How the results depend on the processing

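Of 17 called probe sets, 8 were called with each Se-marginal or Se-deficient array left out in turn, and leaving out those arrays gave totals from 8 to 10, with 5 to 6 higher and 3 to 5 lower. These fits have fewer arrays. Without each 0.2 μg Se/g array the totals ran from 10 to 16, with 5 higher and 5 to 11 lower. The Nrf2 target list kept from 2 to 6 calls and a median from −0.379 to −0.313 in these fits. Beyond 2-fold the count ran from 21 to 53, with 47 without Se-marginal replicate 2 and 53 without Se-deficient replicate 2. Leaving out replicate 1 of every diet, an alternative chosen after seeing the data like the one that drops 0.2 μg Se/g arrays, gave 10 calls, 4 higher and 6 lower, and an Nrf2 median of −0.307. That median was −0.322 with array weights, −0.358 without dim probe sets and −0.278 with quantile normalization. No source says what a replicate number shares, and the residuals of same-numbered arrays did not all correlate above 0.1. For replicates 1, 2 and 3, r was 0.443, 0.0233 and 0.00892 between 0.05 μg Se/g and deficiency, 0.394, −0.0266 and 0.211 between 0.05 and 0.2 μg Se/g, and 0.462, 0.105 and 0.319 between deficiency and 0.2 μg Se/g, so replicate 1 correlated best with its own number in all 3 pairs of diets and replicate 2 in none. A fit with the replicate block gave 49 calls, 9 higher and 40 lower, which include all 17. The 6 arrays of the 2 diets alone gave 13 calls and all 18 mouse arrays gave 24. For Mgst3 the probe set 1450563_at turned the sign to 0.08. The cause of these shifts was not tested.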
